A study of Mus musculus with 16 samples.

Results

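The genes described here are 40 genes of the cell cycle and of cell proliferation, followed across sorted cells of the mouse olfactory mucosa. They were chosen by symbol from general knowledge of DNA replication and mitosis, with earlier results of these data known. Each measured gene was represented by the array probe set annotated to it. Of the 40, 37 were measured, out of 19505 genes on the array in all. Mcm7, Ccnb1 and Foxm1 were not analysed here. No measured member had more than 1 probe set.

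All groups consisted of S100a5-tauGFP mice, in which the S100a5 gene drives a green fluorescent protein (GFP). S100a5 is a calcium-binding protein of olfactory sensory neurons whose expression follows their recent activity, so GFP marks recently active neurons. The 24 animals, of both sexes and 7 to 12 weeks old, formed 8 pools of 3 and each animal spent 40 h alone in a chamber with a clean air supply of 3.1 L/min. After the first 26 h, the animals of 4 pools received 10 s pulses of cigarette smoke odour every 20 min (smoke mice) and those of the other 4 the same pulses of filtered air (vehicle mice). FACS on GFP then separated the dissociated mucosal cells of every pool, which gave 4 groups of 4 Clariom S arrays: smoke GFP+, vehicle GFP+, smoke GFP- and vehicle GFP-. By the markers given further on, the GFP- fraction is a mixture of cell types. The design asks which genes follow odour activation. For the cell cycle genes it also gives the sorted fraction in which their RNA was found and its level after smoke.

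The cell cycle copies the genome once and then divides it between daughter cells. Replication begins when Cdc6 and Cdt1 load the Mcm helicase at origins, cyclin-dependent kinases drive each transition, and the mitotic kinases, the spindle and the anaphase-promoting complex separate the chromosomes. Olfactory sensory neurons are postmitotic and are replaced throughout life by dividing globose basal cells of the same epithelium, while horizontal basal cells divide rarely. Cells of the blood lineages that enter a dissected tissue can also carry proliferation RNA, since their precursors divide in the bone marrow.

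All values and differences below are on the log2 scale that the authors deposited. On it the GFP+ arrays had medians of 7.87 to 7.96, the GFP- arrays of 8.19 to 8.29. The highest value was 18.6, so folds drawn from it may be stretched. A group mean counted as low where it did not exceed that group's level of vomeronasal receptors, genes of another sense organ; the level was the 95th percentile of 319 such genes and was 6.19 to 6.57 by group. Where the lower group lay there, only a lower bound of the fold is known, and it is written as "at least". The markers bore out both labels only in part. S100a5 was higher in GFP+ cells in both exposures, by 1.21 in vehicle mice. All 12 markers of mature olfactory sensory neurons, such as Omp, exceeded the vomeronasal level in every group, so mature neurons were present in both fractions.

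RNA of the cell cycle genes was higher in the GFP- fraction. In vehicle mice, 36 of the 37 members were lower in GFP+ than in GFP- cells (limma, Benjamini-Hochberg adjusted p at most 0.05), against 15.4% of all genes, and none was higher, against 24.2% of all genes. The median difference over the members was -2.77, and over all genes it was 0.17. The fitted difference reached 4-fold for 25 members, and for 5.32% of all genes; for Mcm5, Cdc6, Cdk1, Cdc20 and Kif20a among the 25, the supported bound was below 4-fold. For 36 members all 4 GFP+ arrays lay below all 4 GFP- arrays, which held for 15.1% of all genes. In smoke mice, 35 members were lower in GFP+ cells, against 14.4% of all genes, and none was higher, against 18.3%. The median was then -2.32, beside 0.15 for all genes, and the groups of 33 members did not overlap, as for 13.5% of all genes. In bulk samples fewer cells of a type and less RNA per cell cannot be told apart. The p-values come from a fit that did not pair the fractions of a pool. With each array centred on its median, the share of higher among all genes called moved from 61.2% to 85.0% in vehicle mice and from 56.1% to 85.3% in smoke mice, and the median of all genes from 0.17 to 0.51 and from 0.15 to 0.47. Swapping fractions within the 4 pools gives an exact two-sided p of at least 0.125, and 36 members in vehicle mice and 34 in smoke mice reached this floor.

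**Figure D1:**
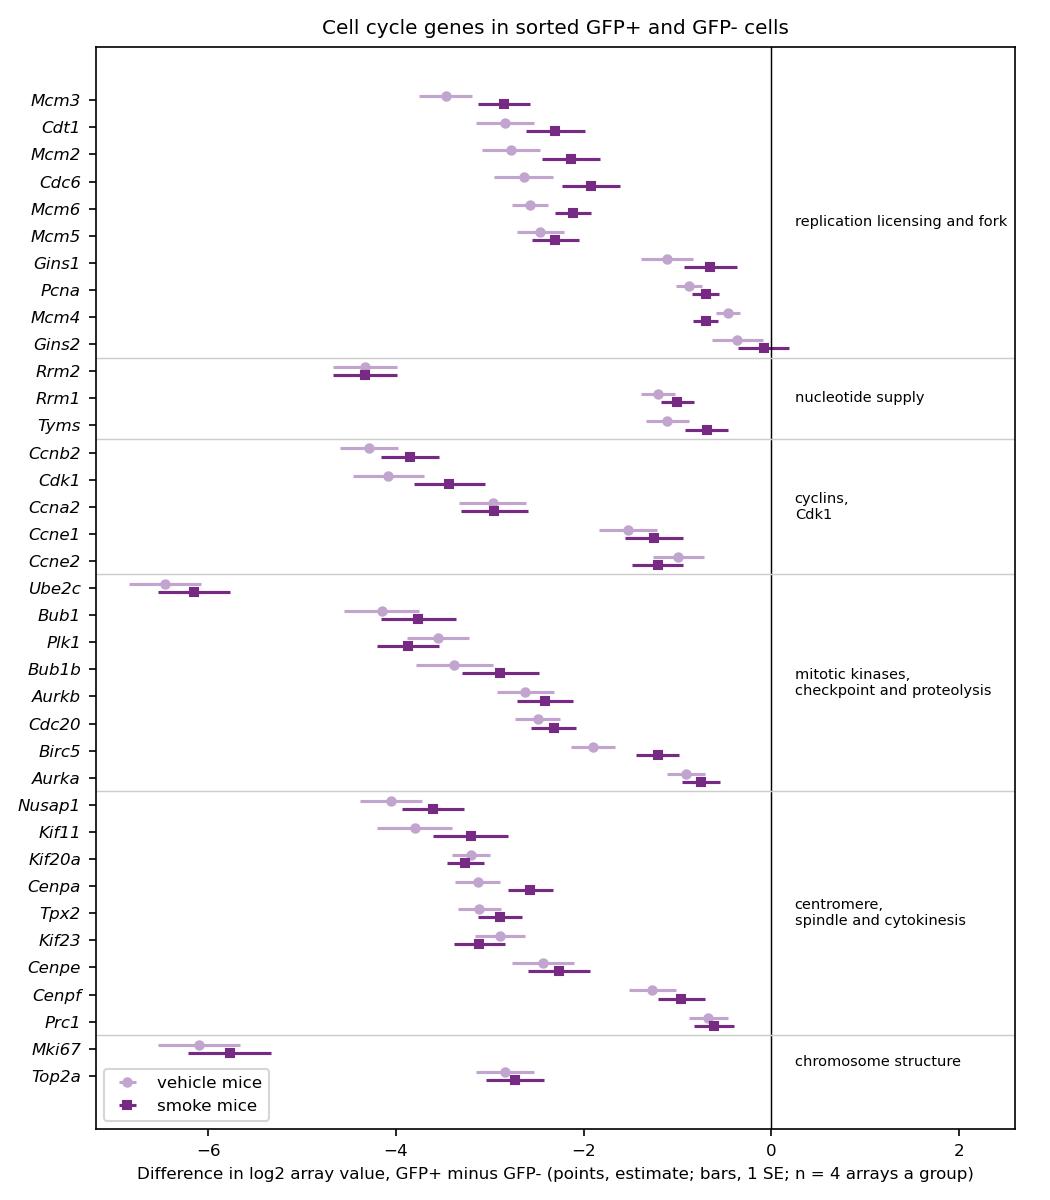
Difference in log2 array value between GFP+ and GFP- cells for each of the 37 members, grouped by role, in vehicle mice (circles) and smoke mice (squares), with bars of 1 SE and 4 arrays in each group. All points lie left of 0, from -6.46 for Ube2c to -0.08 for Gins2 in smoke mice, which turned to 0.24 when arrays were centred on their medians. Where the GFP+ mean lay at the vomeronasal level, the size drawn is uncertain and any supported lower bound is smaller. Cdk1 in vehicle mice, for example, is drawn at -4.08, and its bound is at least 1.83-fold.

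Promoters are shown because the members moved together between the fractions and promoter elements are a textbook feature of this pathway. E2F sites are known from genes of DNA synthesis. The cell cycle homology region (CHR), often paired with CCAAT boxes, is known from genes of mitosis, where it is bound by complexes that hold Lin54, B-Myb or Foxm1. The search covered 300 bases per promoter, from 250 before to 50 after the start site, in the RefSeq table (GRCm38.p6), on both strands. It used the letters TTTCCCGC, TTTGGCGC, TTTCGCGC and TTTGCCGC for E2F, TTTGAA and TTCGAA for the CHR and CCAAT for the CCAAT box. Sites of the E2F words can overlap each other, and TTCGAA reads the same on both strands. A promoter was matched for 29 of the 37 members and for 15691 genes of the array. An E2F word was present in 20.7% of the matched members and in 3.38% of all matched genes. A CHR word was present in 55.2% of members and 19.6% of all genes, and a CCAAT box in 79.3% of members and 42.2% of all genes. Both a CHR word and a CCAAT box were present in 55.2% of members and in 8.09% of all genes. The E2F and CHR words were split by role, while CCAAT boxes were in 70% and 87.5% of the sets that follow, in order. Of 10 matched genes of replication and nucleotide supply, 5 held an E2F word and 1 a CHR word. The 5 with an E2F word were all among the 7 of licensing and the fork, and none was among the 3 of nucleotide supply. Of 16 matched genes of the mitotic kinases, checkpoint, proteolysis, centromere, spindle and chromosome structure, none held an E2F word and 13 held a CHR word, each with a CCAAT box. Cdk1 held all of these. A match describes letters and shows no binding. The stretches below, from the gene's strand 5′ to 3′ and ending at or before the base ahead of the start site, show each type with the matched words in capitals.
Mcm6 (chr1:128359706-128359820, minus strand, E2F words and CCAAT boxes): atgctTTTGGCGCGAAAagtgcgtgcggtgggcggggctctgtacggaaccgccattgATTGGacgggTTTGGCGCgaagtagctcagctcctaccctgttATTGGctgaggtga
Cdc6 (chr11:98908006-98908150, plus strand, an E2F word): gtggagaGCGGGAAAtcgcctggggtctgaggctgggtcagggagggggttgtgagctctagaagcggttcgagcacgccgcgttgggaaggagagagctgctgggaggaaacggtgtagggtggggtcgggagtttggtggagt
Cdk1 (chr10:69352913-69353047, minus strand, an E2F word, CHR words and CCAAT boxes): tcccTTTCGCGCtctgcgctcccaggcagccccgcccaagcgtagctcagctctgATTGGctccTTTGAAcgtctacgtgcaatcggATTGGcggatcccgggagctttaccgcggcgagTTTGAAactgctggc
Ube2c (chr2:164769829-164769928, plus strand, a CHR word and CCAAT boxes): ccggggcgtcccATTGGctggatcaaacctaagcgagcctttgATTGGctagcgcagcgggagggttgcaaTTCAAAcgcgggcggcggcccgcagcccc
Cdc20 (chr4:118437344-118437443, minus strand, a CHR word and CCAAT boxes): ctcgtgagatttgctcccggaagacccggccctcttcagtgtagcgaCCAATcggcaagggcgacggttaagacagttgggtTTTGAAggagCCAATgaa
Mki67 (chr7:135716460-135716579, minus strand, CHR words and CCAAT boxes): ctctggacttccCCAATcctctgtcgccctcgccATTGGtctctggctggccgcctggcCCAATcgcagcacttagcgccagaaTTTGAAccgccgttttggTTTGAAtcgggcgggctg

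Among the 10 measured genes of origin licensing and the replication fork, 9 were lower in GFP+ cells of vehicle mice and 8 in smoke mice, with median differences of -2.51 and -2.01. Mcm3, a subunit of the replicative helicase, had the largest fitted difference, although its GFP+ values gave only a bound. In vehicle mice it read 5.38, 5.81, 5.90 and 5.18 in GFP+ cells and 9.50, 8.51, 8.82 and 9.32 in GFP- cells. In smoke mice it read 5.60, 5.66, 5.98 and 5.65 in GFP+ cells and 7.81, 8.71, 9.41 and 8.37 in GFP- cells. No GFP+ array reached a GFP- array in either exposure. The fitted difference was -3.47 in vehicle mice (SE 0.28, adjusted p = 5.21e-08, limma) and -2.85 in smoke mice (SE 0.28, adjusted p = 6.19e-07). GFP+ cells lay at the vomeronasal level, so GFP- cells were at least 5.96-fold and at least 4.00-fold higher. Cdt1, which loads the helicase together with Cdc6, read 7.94, 7.20, 7.73 and 7.06 in vehicle GFP+ cells and 10.36, 9.88, 10.63 and 10.43 in vehicle GFP- cells. Its smoke values were 7.96, 7.87, 7.51 and 7.65 in GFP+ cells and 9.04, 10.43, 10.87 and 9.82 in GFP- cells. The fitted difference of Cdt1 was -2.84 in vehicle mice (SE 0.31, adjusted p = 1.26e-06, limma) and -2.30 in smoke mice (SE 0.31), and all GFP+ arrays were above the vomeronasal level. Mcm2 and Mcm6 differed by -2.77 and -2.57 in vehicle mice. Mcm5 and Cdc6 lay at the vomeronasal level in GFP+ cells, and GFP- cells of vehicle mice were at least 3.63-fold and at least 2.26-fold higher.

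The remaining replication genes differed by less. Pcna, the sliding clamp of DNA polymerases, which also serves in DNA repair, read 14.07 to 14.37 in vehicle GFP+ cells and 14.87 to 15.33 in vehicle GFP- cells. These groups did not overlap, and the difference was -0.88 (SE 0.14, adjusted p = 1.20e-04, limma), or 1.84-fold. Mcm4, another helicase subunit, read 9.66, 9.46, 9.54 and 9.62 in vehicle GFP+ cells and 10.13, 9.89, 10.17 and 9.91 in vehicle GFP- cells. In smoke mice it read 9.57, 9.42, 9.79 and 9.35 in GFP+ cells and 10.21, 10.28, 10.52 and 9.94 in GFP- cells. The groups of Mcm4 did not overlap, and the differences were -0.46 (SE 0.13, adjusted p = 0.0116, limma) and -0.70 (SE 0.13, adjusted p = 5.70e-04). With each array centred on its median the vehicle difference of Mcm4 was -0.11 (adjusted p = 0.417, limma), and without pool 1 of both exposures it was -0.45 (adjusted p = 0.0638). Gins1 and Gins2 encode parts of the complex that activates the helicase. Gins1 was lower in vehicle GFP+ cells (-1.11, SE 0.28, adjusted p = 0.00426, limma), with GFP- cells at least 1.33-fold higher. In smoke mice its fitted difference was -0.65 (adjusted p = 0.0817, limma).

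Gins2 was the single member called in neither exposure. It read 5.0, 5.64, 5.38 and 5.84 in vehicle GFP+ cells, 6.28, 5.73, 5.31 and 5.99 in vehicle GFP- cells, 5.88, 5.11, 5.36 and 6.0 in smoke GFP+ cells and 5.09, 5.74, 6.34 and 5.53 in smoke GFP- cells. The values overlapped, and every group mean lay at or below the vomeronasal level, so this probe set gave no fold. Its differences were -0.36 (adjusted p = 0.317, limma) and -0.08 (adjusted p = 0.833), with 95% intervals from -0.94 to 0.22 and from -0.67 to 0.50.

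All 3 genes of nucleotide supply were lower in GFP+ cells in both exposures, with medians of -1.21 and -1.0. Rrm2, the cell-cycle-regulated subunit of ribonucleotide reductase, read 7.42, 6.62, 6.87 and 7.28 in vehicle GFP+ cells and 11.30, 10.90, 11.69 and 11.62 in vehicle GFP- cells. Its smoke values were 6.98, 6.71, 7.04 and 6.41 in GFP+ cells and 10.28, 11.32, 12.31 and 10.55 in GFP- cells. The groups did not overlap, and the difference was -4.33 in vehicle mice (SE 0.34, adjusted p = 3.03e-08, limma), a 20.1-fold step, and -4.33 in smoke mice (SE 0.34). Rrm1, the other subunit of the same enzyme, read 10.64, 10.60, 10.60 and 10.53 in vehicle GFP+ cells and 11.94, 11.63, 11.84 and 11.80 in vehicle GFP- cells. In smoke mice Rrm1 read 10.76, 10.81, 10.78 and 10.57 in GFP+ cells and 11.28, 12.02, 12.32 and 11.32 in GFP- cells. Its groups did not overlap either, but the difference was smaller, at -1.21 in vehicle mice (SE 0.18, adjusted p = 5.86e-05, limma) or 2.31-fold, and -1.0 in smoke mice. Tyms, thymidylate synthase, differed by -1.11 and -0.69 (SE 0.23 each), and its smoke groups overlapped.

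The measured cyclins and Cdk1, 5 genes together, were all lower in GFP+ cells in both exposures, with medians of -2.97 and -2.95. Ccnb2, a B-type cyclin of mitosis, read 6.70, 6.81, 6.89 and 7.05 in vehicle GFP+ cells and 10.97, 10.77, 11.52 and 11.37 in vehicle GFP- cells. Under smoke it read 7.07, 6.94, 6.74 and 7.27 in GFP+ cells and 10.24, 11.55, 11.68 and 9.96 in GFP- cells. The groups lay far apart, by -4.29 in vehicle mice (SE 0.31, adjusted p = 1.05e-08, limma), a 19.6-fold step, and by -3.85 in smoke mice (SE 0.31, 14.4-fold). Cdk1, the kinase that Ccnb2 activates, read 3.48, 3.16, 3.21 and 3.17 in vehicle GFP+ cells and 7.24, 7.20, 7.20 and 7.70 in vehicle GFP- cells. Its smoke values were 3.31, 3.83, 3.70 and 3.55 in GFP+ cells and 6.24, 7.61, 8.40 and 5.86 in GFP- cells. The groups did not overlap, and the fitted difference of Cdk1 was -4.08 in vehicle mice (SE 0.38, adjusted p = 2.71e-07, limma) and -3.43 in smoke mice. Its GFP+ means were far below the vomeronasal level, so the bounds were at least 1.83-fold and at least 1.37-fold. Ccna2, cyclin A of replication and early mitosis, differed by -2.97 and -2.95. The E-type cyclins, which act at the start of replication, differed by less: Ccne1 by -1.53 in vehicle mice (at least 2.68-fold) and -1.25 in smoke mice, Ccne2 by -0.99 and -1.21.

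The 8 mitotic kinases, checkpoint proteins and proteolysis factors were all lower in GFP+ cells in both exposures, with medians of -3.00 and -2.65. Ube2c, the ubiquitin-conjugating enzyme of the anaphase-promoting complex, had the largest fitted difference of all members, although its GFP+ values gave only a bound. It read 5.38, 5.56, 4.77 and 5.08 in vehicle GFP+ cells and 11.64, 11.03, 11.76 and 12.20 in vehicle GFP- cells. In smoke mice Ube2c read 4.70, 5.38, 5.18 and 4.79 in GFP+ cells and 10.26, 11.61, 12.39 and 10.41 in GFP- cells. The lowest GFP- array exceeded the highest GFP+ array by a wide margin in both exposures. The difference was -6.46 in vehicle mice (SE 0.38, adjusted p = 1.01e-09, limma) and -6.15 in smoke mice (SE 0.38), and GFP- cells were at least 36.6-fold and at least 24.2-fold higher. Bub1, a kinase of the spindle checkpoint, read 4.35, 5.09, 4.89 and 4.27 in vehicle GFP+ cells and 8.41, 8.52, 9.04 and 9.22 in vehicle GFP- cells. Its smoke values were 5.16, 5.33, 3.86 and 5.30 in GFP+ cells and 7.69, 8.95, 9.80 and 8.25 in GFP- cells. The difference of Bub1 was -4.15 in vehicle mice (SE 0.40, adjusted p = 3.28e-07, limma) and -3.76 in smoke mice, with GFP- cells at least 5.05-fold and at least 4.29-fold higher. Plk1, polo-like kinase, differed by -3.55 in vehicle mice, and Aurka, the kinase of the spindle poles, by -0.91. The other 4 genes of this group lay at the vomeronasal level in vehicle GFP+ cells. In vehicle mice GFP- cells were at least 6.61-fold higher for Bub1b, a checkpoint protein, and at least 4.71-fold for Aurkb, the kinase of the chromosomal passenger complex. The bounds were at least 3.22-fold for Birc5, or survivin, of the same complex, and at least 1.61-fold for Cdc20, an activator of the anaphase-promoting complex.

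The 9 genes of the centromere, the spindle and cytokinesis were all lower in GFP+ cells in both exposures, with medians of -3.11 and -2.89. Nusap1, which binds spindle microtubules, read 6.81, 6.33, 6.28 and 6.71 in vehicle GFP+ cells and 10.72, 9.99, 10.86 and 10.76 in vehicle GFP- cells. Under smoke it read 6.32, 6.8, 6.96 and 6.44 in GFP+ cells and 9.58, 10.45, 11.40 and 9.49 in GFP- cells. The groups did not overlap, and the difference was -4.05 in vehicle mice (SE 0.33, adjusted p = 5.10e-08, limma), or 16.5-fold, and -3.60 in smoke mice. The vehicle GFP+ mean of Nusap1, 6.54, lay close to the vomeronasal level of 6.46, so the size of this fold is uncertain. Kif11, the motor that pushes spindle poles apart, read 6.64, 6.68, 7.91 and 7.94 in vehicle GFP+ cells and 11.13, 10.64, 11.15 and 11.44 in vehicle GFP- cells. Its smoke values were 7.40, 8.37, 8.23 and 7.04 in GFP+ cells and 10.60, 11.06, 11.98 and 10.20 in GFP- cells. The Kif11 groups did not overlap in either exposure and differed by -3.80 (SE 0.40, adjusted p = 9.26e-07, limma) and -3.20. Cenpa, the histone of the centromere, differed by -3.13 in vehicle mice, Kif23, a motor of the central spindle, by -2.89, and Cenpe, a kinetochore motor, by -2.43. Tpx2, Kif20a and Cenpf lay at the vomeronasal level in vehicle GFP+ cells. GFP- cells of vehicle mice were at least 4.80-fold higher for Tpx2, an activator of Aurora A, at least 3.21-fold for Kif20a, a motor of cytokinesis, and at least 1.14-fold for Cenpf, a kinetochore protein.

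Prc1, which bundles the microtubules of the central spindle, had the smallest difference of this group. It read 8.58, 8.49, 8.63 and 8.20 in vehicle GFP+ cells and 9.0, 8.92, 9.26 and 9.39 in vehicle GFP- cells. In smoke mice it read 8.06, 8.65, 8.40 and 8.13 in GFP+ cells and 8.40, 9.29, 9.41 and 8.57 in GFP- cells, where the groups overlapped. The differences of Prc1 were -0.67 (SE 0.21, adjusted p = 0.0186, limma) and -0.61 (SE 0.21, adjusted p = 0.0360). The vehicle call was lost with centred arrays (-0.32, adjusted p = 0.140, limma), with quantile normalization (-0.46, adjusted p = 0.0831) and without vehicle replicate 4 of GFP+ cells (adjusted p = 0.0576) or of GFP- cells (adjusted p = 0.0588). The smoke call of Prc1 was lost in several alternatives, with adjusted p up to 0.196 in limma. Leaving out smoke GFP+ replicate 1, 3 or 4 gave 0.0965, 0.0529 and 0.0886, and leaving out smoke GFP- replicate 2 or 3 gave 0.117 and 0.129.

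Both genes of chromosome structure were lower in GFP+ cells in both exposures. Mki67 encodes Ki-67, the coat protein of mitotic chromosomes and the common histological marker of dividing cells. In vehicle mice it read 6.56, 6.04, 7.09 and 6.57 in GFP+ cells and 13.00, 12.15, 12.85 and 12.64 in GFP- cells. In smoke mice it read 5.95, 6.5, 7.29 and 6.5 in GFP+ cells and 11.60, 13.09, 13.54 and 11.07 in GFP- cells. The difference of Mki67 was -6.10 in vehicle mice (SE 0.44, adjusted p = 1.05e-08, limma), a 68.4-fold step. Its vehicle GFP+ mean of 6.56 lay close to the vomeronasal level of 6.46, so the size of this fold is uncertain. In smoke mice it was -5.77 (SE 0.44, adjusted p = 2.45e-08), with GFP- cells at least 46.7-fold higher. Top2a, the topoisomerase that untangles replicated chromosomes, read 5.58, 5.99, 6.58 and 6.36 in vehicle GFP+ cells and 9.13, 8.80, 8.66 and 9.28 in vehicle GFP- cells. Its smoke values were 6.23, 6.59, 5.55 and 5.76 in GFP+ cells and 8.35, 9.08, 9.57 and 8.03 in GFP- cells. The groups of Top2a did not overlap, and GFP- cells were at least 5.50-fold higher in vehicle mice and at least 4.48-fold higher in smoke mice. The fitted differences were -2.84 (SE 0.31, adjusted p = 1.53e-06, limma) and -2.73.

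**Figure D2:**
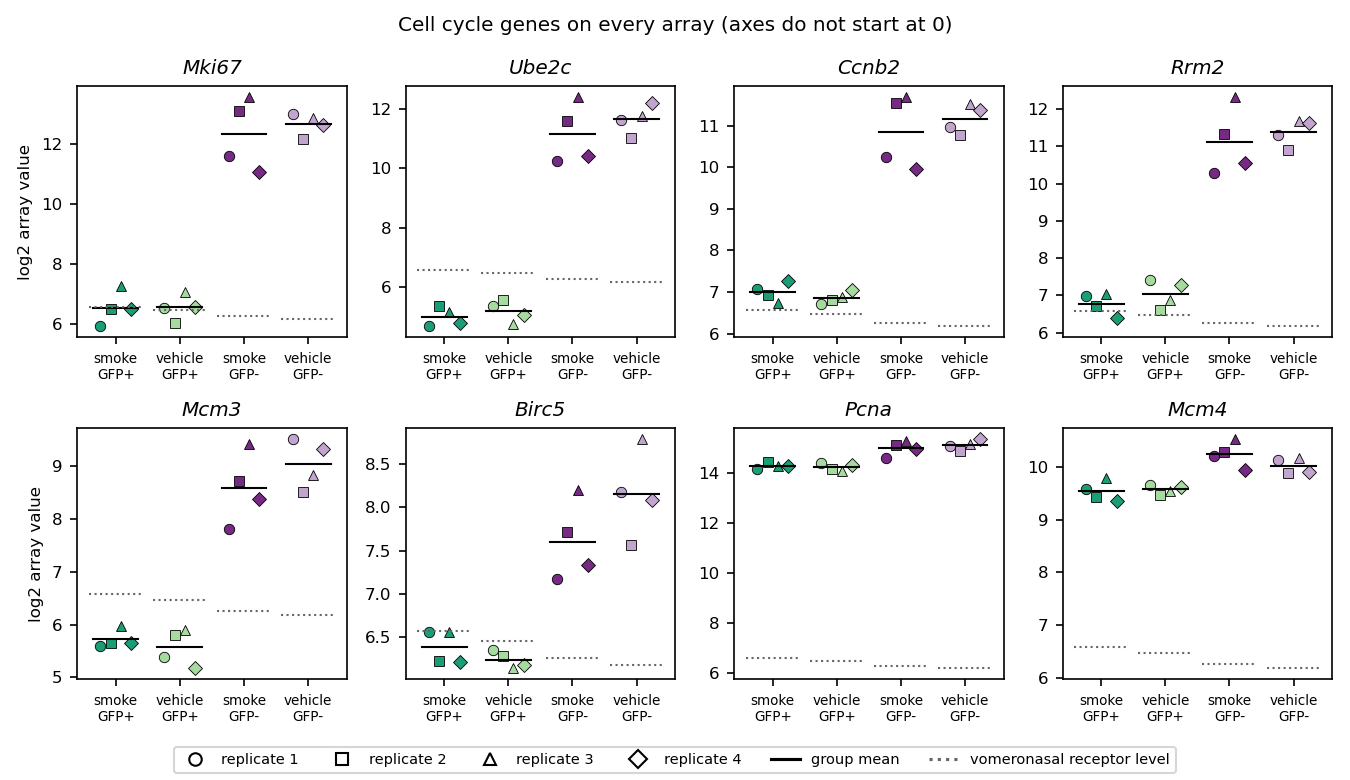
Log2 array values of 8 members on all 16 arrays, by group, with a symbol for each replicate number, the group mean as a solid line and the vomeronasal receptor level of the group as a dotted line. Mki67, Ube2c, Ccnb2, Rrm2 and Mcm3 stand far apart between fractions, Pcna and Mcm4 differ by -0.88 and -0.46 in vehicle mice (Mcm4 by -0.11 with arrays centred on their medians), and smoke GFP- replicates 1 and 4 lie below replicates 2 and 3 in most panels.

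Some members exceeded the vomeronasal level in the GFP+ fraction too, not all of them by much. In vehicle GFP+ cells 20 of the 37 members exceeded it and in smoke GFP+ cells 17 did, against 36 in each GFP- group; of all genes, 61.5% to 67.6% did. The 16 members above it in all 4 groups included Pcna, Rrm1, Tyms, Mcm4, Cdt1, Prc1 and Aurka. Aurka exceeded it only slightly in vehicle GFP+ cells, with a mean of 6.51 beside a level of 6.46. Array values do not rank different genes, and the counts say only which probe sets carried signal.

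The rest of the pathway was followed with 116 measured genes of 119 listed, none of them a member. In vehicle mice 74 of them were lower in GFP+ cells, against 15.4% of all genes, and 3 were higher, against 24.2%. Their median was -0.85. In smoke mice 74 were lower, against 14.4% of all genes, and 1 was higher, against 18.3%, with a median of -0.76. Of 46 other genes of mitosis, 43 were lower and none was higher in both exposures, with a median of -1.46 in vehicle mice. Examples in vehicle mice are Cdca3, a trigger of mitotic entry (-3.33, at least 8.36-fold), and Ncaph, a condensin subunit (-3.28, at least 3.98-fold). Of 16 genes of the G1 cyclins, their kinases and the E2F factors, 11 were lower in vehicle mice. E2f2, a transcription factor of replication genes, differed by -5.87 (at least 40.9-fold), Myc, a growth-promoting factor, by -4.86 (at least 14.1-fold), and Cdk2, the partner of cyclin E, by -4.86 (at least 25.1-fold). Of 29 other genes of origins, polymerases and the fork, 12 were lower in vehicle mice, with a median of -0.34. That share was smaller than for mitosis but larger than the 15.4% of all genes. In vehicle mice 2 were higher: Dscc1 (0.58, adjusted p = 0.0117, limma), which helps load the clamp, and Rfc3 (0.37, adjusted p = 0.0151), a clamp loader subunit. Of 7 other genes of nucleotide supply none was lower, and Umps, an enzyme of pyrimidine synthesis, was higher in GFP+ cells (0.40 in vehicle mice, adjusted p = 0.0155, and 0.38 in smoke mice, adjusted p = 0.0256, limma). The higher calls depended on scaling: with arrays centred on their medians 21 of the 116 were higher in vehicle mice and 19 in smoke mice.

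On the deposited scale no inhibitor of the cell cycle was called higher in GFP+ cells. Of 18 inhibitors and genes of quiescence, 8 were lower in vehicle mice, against 15.4% of all genes. None was higher, against 24.2%, and 10 were not called. The median was -0.16, with 6 of the 18 above 0. Cdkn1b and Btg2, given next, had the largest differences of this list. Cdkn1b, the inhibitor p27, read 5.40 to 6.16 in vehicle GFP+ cells and 11.33 to 11.91 in vehicle GFP- cells, a difference of -5.61 (SE 0.29, adjusted p = 2.95e-10, limma) and at least 33.4-fold. Btg2, an antiproliferative gene, differed by -5.06 (SE 0.21, adjusted p = 2.60e-11, limma), from 8.35 to 8.95 in vehicle GFP+ cells to 13.66 to 14.04 in vehicle GFP- cells. Drivers and brakes of the cycle were both among the genes lower in GFP+ cells. Which cells of the GFP- fraction held them cannot be told apart in these samples.

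Markers of several cell types moved with the fractions as the members did. Globose basal and progenitor markers were lower in GFP+ cells for 8 of 9 genes in both exposures, with a median of -1.26 in vehicle mice. Their mean was 6.90 to 7.23 over GFP+ arrays and 8.32 to 8.77 over GFP- arrays. Kit, a receptor of globose basal cells and of blood precursors, differed by -3.31 in vehicle mice (at least 7.85-fold), and Neurog1 lay at or below the vomeronasal level in every group. Blood markers differed more. All 9 general leukocyte markers (median -5.63), all 14 markers of neutrophil precursors and granulocytes (-7.19), all 7 erythroid markers (-3.27) and 7 of 9 B lineage markers (-3.18) were lower in GFP+ cells of vehicle mice. The leukocyte mean was 7.63 to 8.24 over GFP+ arrays and 12.50 to 14.14 over GFP- arrays. Elane and Mpo, granule enzymes made by dividing neutrophil precursors, differed by -5.94 and -6.62 in vehicle mice. Microvillar and ionocyte markers were lower for all 8 genes (-3.32). Markers of horizontal basal cells (3 of 10 lower), of endothelium and stroma (2 of 9) and of ensheathing cells (2 of 6) had medians from -0.09 to 0.01 in vehicle mice. Of these, 6 of 10, 4 of 9 and 3 of 6 lay at or below the vomeronasal level even in vehicle GFP- cells, so their medians say little about those cell types. Sustentacular markers were lower for 9 of 12 genes in vehicle mice (-0.75), and in smoke mice 3 were lower and 1 higher (-0.39). Between smoke and vehicle GFP+ cells all 12 sustentacular differences were above 0, with a median of 0.48; limma called none, and 7 had an unadjusted p under 0.05. Gland and respiratory markers were lower for 5 of 10 genes in vehicle mice (-1.08) and for 2 in smoke mice (-0.10). Ltf, with the largest difference of that list (-7.43 in vehicle mice), is also counted among the neutrophil markers. In vehicle mice immature neuron markers were lower for 6 of 12 genes and higher for 2 (-0.74). How much each cell type gave to the cell cycle signal was not tested.

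Within the GFP- fraction the members varied between smoke pools. The mean over the 37 members was 8.59, 9.36, 10.01 and 8.73 in smoke GFP- replicates 1 to 4 and 9.39, 9.06, 9.52 and 9.53 in vehicle GFP- replicates 1 to 4. Smoke replicates 1 and 4 were thus the lowest of the 8 arrays and smoke replicate 3 the highest, with the vehicle arrays between. The median standard deviation of a member was 0.70 among smoke GFP- arrays and 0.32 among vehicle GFP- arrays, beside 0.22 and 0.21 for all genes. The smoke value was the larger for 35 of 37 members and for 57.0% of all genes. In GFP+ cells the members' median was 0.29 in both exposures. Of the 37 members, 32 had their highest GFP- value in smoke replicate 3, as had 11.6% of all genes, and 21 had their lowest in smoke replicate 1 and 12 in smoke replicate 4, as had 15.3% and 11.4% of all genes. Replicates 1 and 4 both lay below replicates 2 and 3 for 34 members in smoke GFP- cells and for 17.5% of all genes, an order described after the values were seen. In vehicle GFP- cells no member had that order, against 14.6% of all genes. In smoke GFP+ cells, from the same pools, 10 members had it, against 17.5% of all genes.

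The order of the smoke GFP- arrays, which 17.5% of all genes had, was shared by most blood markers and by fewer epithelial markers. It held for 8 of 9 leukocyte markers, 12 of 14 markers of neutrophil precursors and granulocytes, 7 of 7 erythroid markers and 5 of 9 B lineage markers. It held for 3 of 10 gland and respiratory markers, 2 of 8 microvillar and ionocyte markers and 2 of 9 globose basal markers. It held for 1 of 12 immature neuron markers and none of the 10 horizontal basal, 12 mature neuron and 12 sustentacular markers. The leukocyte mean was 12.50, 13.34, 14.09 and 12.82 in smoke GFP- replicates 1 to 4, and 13.28, 13.00, 13.62 and 14.14 in vehicle GFP- replicates 1 to 4. The mean of neutrophil precursor and granulocyte markers was 12.84, 13.83, 14.28 and 13.30 in smoke and 13.52, 13.37, 13.55 and 14.03 in vehicle GFP- arrays. The erythroid mean was 10.04, 11.04, 11.50 and 9.54 in smoke and 10.80, 10.56, 11.46 and 11.31 in vehicle GFP- arrays. The globose basal and progenitor mean moved less, at 8.32, 8.36, 8.77 and 8.46 in smoke and 8.71, 8.47, 8.48 and 8.38 in vehicle GFP- arrays, and was also highest in smoke replicate 3. The part of these cell types in the spread of the members was not tested. Among the 116 other genes of the pathway, the same order held for 39 of 46 genes of mitosis, 10 of 16 of the G1 group, 12 of 18 inhibitors, 15 of 29 of origins and forks and 1 of 7 of nucleotide supply.

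**Figure D3:**
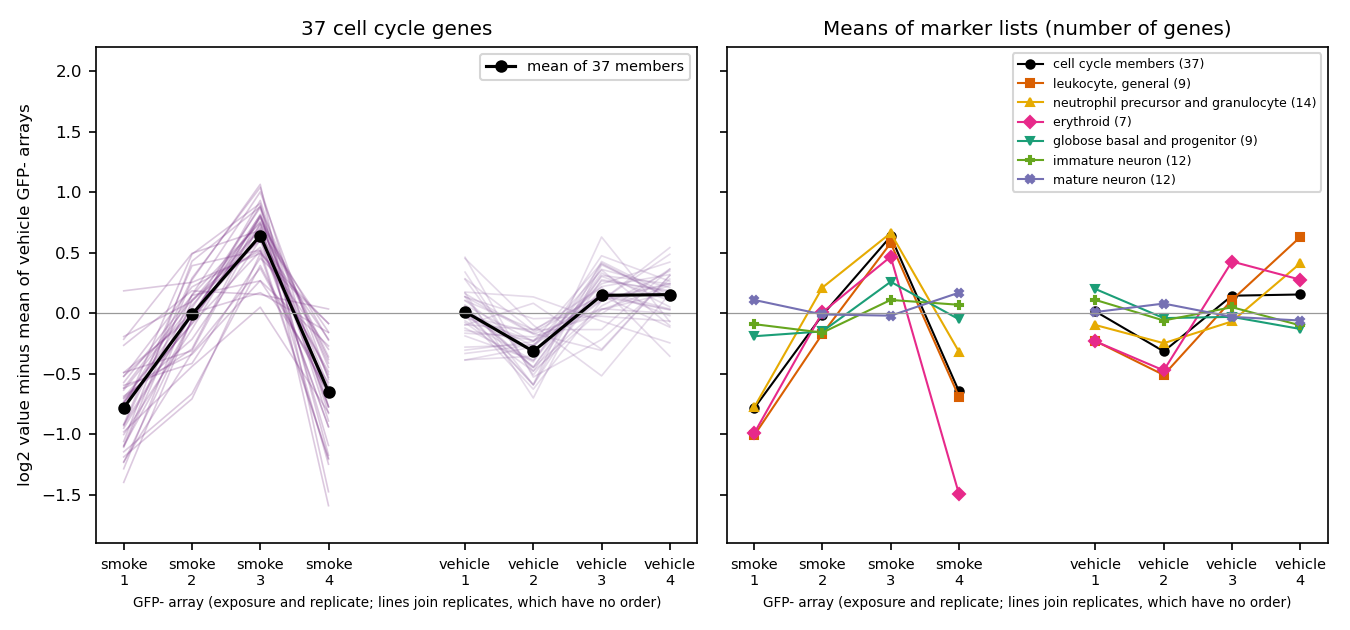
GFP- arrays of the 4 smoke and 4 vehicle pools, each value drawn as its log2 difference from the mean of the vehicle GFP- arrays; left, the 37 members as thin lines and their mean as black circles, right, the means of the members and of 6 marker lists. Lines join replicates for legibility, and replicates have no order. The member mean is lowest in smoke replicates 1 and 4 (8.59 and 8.73) and highest in smoke replicate 3 (10.01), as are the leukocyte, neutrophil precursor and erythroid means among the smoke pools.

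Smoke odour moved no member past the threshold. In GFP- cells none of the 37 was called by limma in either direction, where 0.113% of all genes were lower and 0.0154% higher; 2 members had an unadjusted p under 0.05, as had 1115 of all 19505 genes. The median difference of smoke against vehicle was -0.15, beside 0.01 for all genes. Of the members 33 lay below 0 and 4 above, beside 9285 and 10220 of all genes. Other lists lay below 0 too: 9 of 9 general leukocyte markers (median -0.29), 7 of 7 erythroid (-0.59) and 8 of 9 B lineage (-0.61). So did 10 of 10 gland and respiratory markers (-0.54) and 8 of 14 neutrophil markers (-0.08). No marker of these lists was called by limma, but 6 of the 9 B lineage markers had an unadjusted p under 0.05. None of the leukocyte, erythroid, gland and respiratory or neutrophil markers had such a p. Smoke and vehicle arrays overlapped for every member, while all smoke arrays lay below all vehicle arrays for 1.3% of all genes and above them for 1.43%. Birc5 had the smallest p. Its GFP- values were 7.17, 7.71, 8.20 and 7.33 in smoke mice and 8.18, 7.56, 8.78 and 8.08 in vehicle mice, a difference of -0.55 (SE 0.23, adjusted p = 0.845, limma; exact two-sided permutation p = 0.200). Cenpa followed, with 9.38, 9.86, 10.92 and 9.86 in smoke and 10.36, 10.33, 10.52 and 10.89 in vehicle mice, a difference of -0.52 (SE 0.24, adjusted p = 0.861, limma; exact p = 0.200). Mki67 differed by -0.33, with a 95% interval from -1.26 to 0.59. Over the members the half-width of these intervals had a median of 0.60 and ran from 0.28 to 0.93. Single pools set the median. Without smoke GFP- replicate 3 it was -0.47, without smoke GFP- replicate 1 it was 0.01, without smoke GFP- replicate 4 it was -0.03, and without vehicle GFP- replicate 2 it was -0.28; no member was called in any of these.

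In GFP+ cells none of the 37 was called by limma either, where 0.103% of all genes were higher and 0.00513% lower, and none had an unadjusted p under 0.05, beside 936 of all 19505 genes. The median difference was 0.10, beside 0.00 for all genes, with 26 members above 0 and 11 below, beside 9536 and 9969 of all genes. The arrays overlapped for every member, while all smoke arrays were lower for 1.34% of all genes and higher for 1.66%. Aurka read 6.90, 6.47, 6.99 and 7.10 in smoke and 6.27, 6.62, 6.84 and 6.28 in vehicle GFP+ cells, a difference of 0.36 (SE 0.20, adjusted p = 0.999, limma; exact p = 0.143). In GFP- cells Aurka read 7.20, 7.91, 8.10 and 7.26 in smoke and 7.55, 7.37, 7.39 and 7.35 in vehicle mice. Kif23 read 6.26, 6.94, 6.47 and 6.43 in smoke and 7.17, 6.61, 6.99 and 6.75 in vehicle GFP+ cells, a difference of -0.35 (SE 0.27, adjusted p = 0.999, limma; exact p = 0.143). The widest 95% bounds among the members were -1.12 and 1.31. In smoke GFP+ cells 20 of the 37 members lay at or below the vomeronasal level.

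The smoke effect was also compared between fractions. The difference of the smoke effects (GFP+ minus GFP-) was called by limma for no member, where 0.169% of all genes were higher and 0.00513% lower; 1 member had an unadjusted p under 0.05. The median was 0.28, with 32 members above 0 and 5 below, beside 9430 and 10075 of all genes. Birc5 had the smallest p, with 0.70 (SE 0.33, adjusted p = 0.860, limma). Its GFP+ values were 6.56, 6.23, 6.56 and 6.22 in smoke and 6.36, 6.29, 6.15 and 6.18 in vehicle mice, all close to the vomeronasal level. Mcm6 followed with 0.46 (SE 0.27, adjusted p = 0.894, limma). It read 9.16, 9.44, 10.05 and 9.51 in smoke and 10.06, 9.30, 9.81 and 9.95 in vehicle GFP- cells, and 7.29, 7.41, 7.54 and 7.48 in smoke and 7.02, 7.19, 7.09 and 7.56 in vehicle GFP+ cells. The median was 0.58 without smoke GFP- replicate 3, 0.09 without smoke GFP- replicate 1 and 0.14 without smoke GFP- replicate 4. None of the 116 other genes of the pathway was called by limma in these 3 comparisons, with 10 in GFP- cells, 2 in GFP+ cells and 4 for the difference at an unadjusted p under 0.05. Of all 19505 genes, 1115, 936 and 1114 had such a p in these comparisons.

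**Figure D4:**
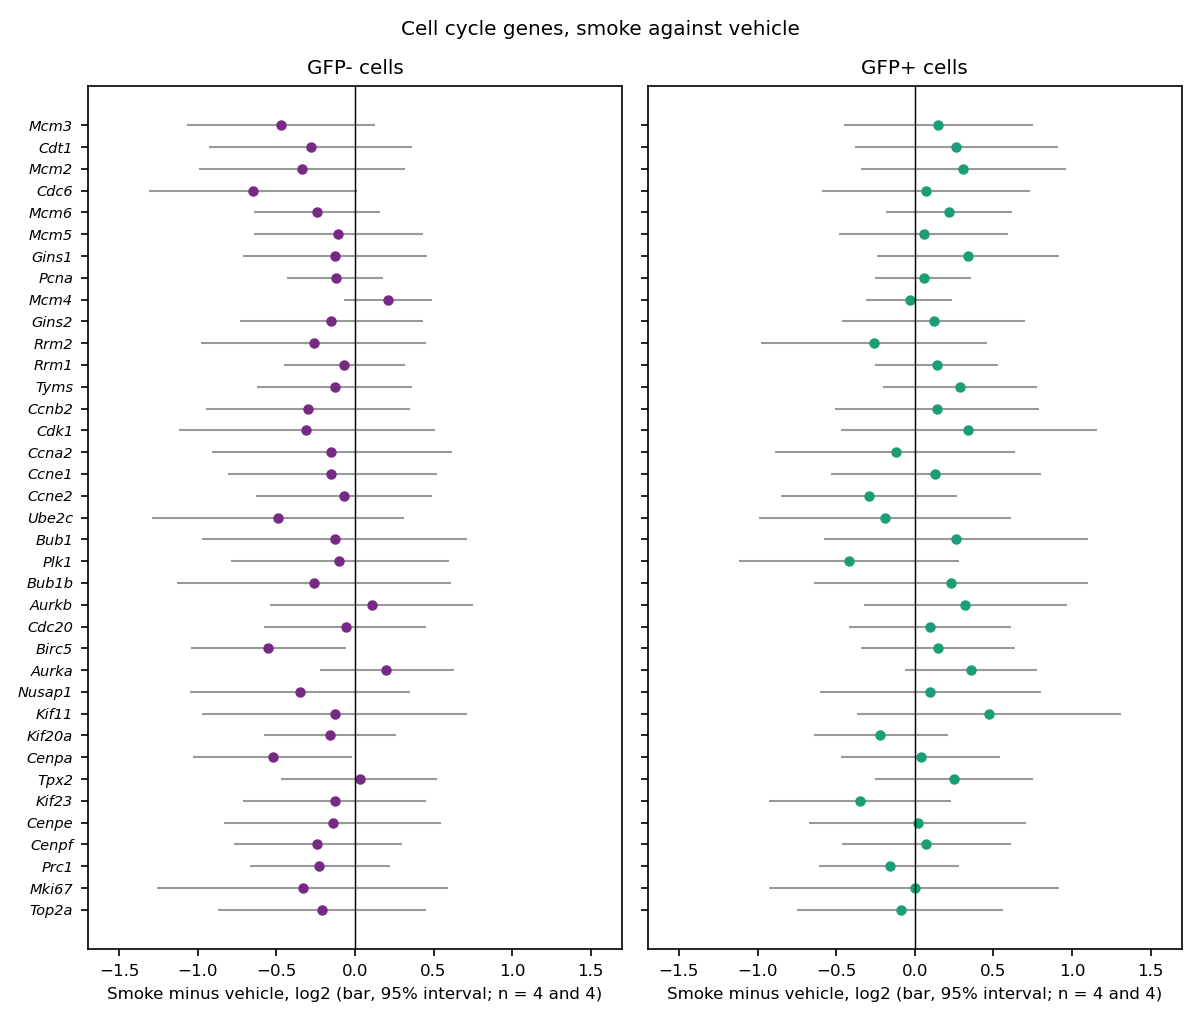
Smoke minus vehicle difference in log2 array value for each of the 37 members, in GFP- cells (left) and GFP+ cells (right), with 95% intervals from limma and 4 arrays in each group. The intervals of 35 members in GFP- cells and of all 37 in GFP+ cells include 0, and no member passed the adjusted threshold.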

How the data were processed

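Values were the log2 array values that the authors deposited, used as given. Affymetrix Expression Console was used, per the submitters' processing notes, with the version and algorithm not given in the sources used here. Sorted values differed by at most 0.346 between arrays, so the deposited log2 values had been normalized between arrays. Of 28846 probe sets, 19572 carried 1 symbol, and the probe set with the highest mean stood for each of 19505 genes. The labels name cigarette smoke and were followed; the series text names another odour.

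Groups were compared with limma 3.58.1 in R 4.3.3 (lmFit, eBayes, 4 group means, 16 arrays, 5 contrasts), checked on simulated data, with two-sided p-values, Benjamini-Hochberg adjustment over the 19505 genes and a threshold of 0.05. Single genes were also tested by exact permutation over arrays; 4 against 4 cannot go below 0.0286. Replicates were pools of mice, and precision is limited by how many arrays there are. The 24 mice make 8 pools for 16 arrays, so both fractions of a replicate number came from 1 pool; their residuals correlated with r of 0.0453 to 0.22. Bounds were taken against each array's vomeronasal level.

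Members and lists were chosen with earlier results of these data known. Values on every array are given for the 2 members of each role with the largest vehicle sort difference, the 2 with the smallest p in each smoke comparison where none was called, and the members with the smallest sort differences. Alternatives covered pairing, probe sets, dim genes, scaling, the variance model, array weights, the threshold and left-out arrays or pools. Promoters came from RefSeq (GRCm38.p6), and Python 3.11.15 with matplotlib 3.10.9 drew the figures.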

Additional observations from a re-analysis of the deposited data

Results flagged for a closer look

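Of 152 groups of 4 arrays looked at, those of each member and of the members' mean, 7 held an array that stood apart from the other 3, by a gap, as a share of the group's range, above Dixon's 95% critical value. Chance gives about 1 in 20. The gap was 0.837 of the range for Mcm3 in smoke GFP+ cells, where replicate 3 was highest (5.98), and 0.843 for Ccne2 in smoke GFP+ cells, where replicate 2 was lowest (6.38). It was 0.856 for Ccne1 in vehicle GFP+ cells, where replicate 4 was lowest (6.06), and 0.884 for Bub1 in smoke GFP+ cells, where replicate 3 was lowest (3.86). Cdk1 stood apart in both vehicle groups, with 0.851 in GFP+ cells, where replicate 1 was highest (3.48), and 0.921 in GFP- cells, where replicate 4 was highest (7.70). Nusap1 in vehicle GFP- cells had 0.834, with replicate 2 lowest (9.99). None of these lay in smoke GFP- cells.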

How the results depend on the processing

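Over the settings tried, the counts of members ranged as follows: 34 to 36 were lower in GFP+ cells of vehicle mice and 31 to 36 in smoke mice, none was higher, and none was called for smoke. A fixed block for the pool (replicate block by pool) was fitted for GFP+ against GFP- cells and for the difference of smoke effects. It changed no count of members by over 1.5 times, nor did a block of replicate numbers across exposures (replicate block). A random pool block was kept only for smoke against vehicle, where no member was called. The vehicle median (-2.77) was -2.42 with arrays centred on their medians and -2.56 with quantile normalization, and -2.86 to -2.65 with an array left out. Of the 116 other pathway genes, the 3 higher in vehicle GFP+ cells became 5 with the replicate block by pool, 21 with centring, 6 with quantile normalization, 5 at an adjusted p of 0.10, 1 without pool 1 of both exposures and 2 to 5 with an array left out. The 1 higher in smoke GFP+ cells became 0 with only the arrays of the 2 groups, 2 with the replicate block, 3 without dim genes, 19 with centring, 5 with quantile normalization, 3 at 0.10, 0 without smoke pools 2 and 4, 0 without pool 1 of both exposures and 0 to 2 with an array left out. Gins2 in smoke mice (-0.08) turned to 0.24 with centring and to 0.08 and 0.14 without smoke GFP+ replicate 2 or smoke GFP- replicate 3 (range with an array left out -0.28 to 0.14). The cause was not tested. A 2-group fit of the difference of smoke effects and a fixed pool block for smoke against vehicle could not be fitted. With the replicate numbers as a block across exposures no member call for smoke was made; residuals of same-numbered smoke and vehicle arrays correlated from -0.0841 to 0.198. Signal near the vomeronasal level limits what GFP+ cells can show.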
